A study of Mus musculus with 2 samples.

Results

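The white-cell miRNA genes Mir142, Mir150, Mir155, Mir223, Mir342 and Mir146b were followed in the adrenal gland of the mouse. They were taken by gene name from GENCODE M21 as miRNAs known from lymphoid and myeloid cells, and the name matched 6 of the 2202 annotated miRNA genes. The libraries were microRNA-seq libraries, which sequence RNAs short enough to be mature miRNAs, made from total RNA of whole adrenal glands. All came from female B6CASTF1/J mice, first-generation hybrids of a laboratory strain and a wild-derived strain, aged 36 days. There was 1 group of 2 libraries, replicate 1 and replicate 2, and no other tissue, age, sex or treatment. The labels number the females separately but give both libraries 1 donor identifier, so the spread between the libraries may or may not be a spread between animals. Replicate 1 held 5397603 sense counts of miRNA genes and replicate 2 held 3029977, out of 13973580 and 7530945 reads. The endocrine miRNA gene Mir375 was abundant, at 28922 CPM in replicate 1 and 22246 CPM in replicate 2. Mir122, known from hepatocytes, was also present, at 1503 CPM in replicate 1 and 146 CPM in replicate 2.

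A miRNA gene is transcribed as a hairpin, which is cut to mature products from its 5p and 3p arms. Bases 2 to 8 of a mature miRNA, the seed, pair with target messages and lead to their repression. White cells carry miRNAs that are scarce in most other cells, and a gland holds them both as resident macrophages and lymphocytes and in the blood of its vessels. miR-142 is found across blood lineages, miR-150 in mature lymphocytes, and miR-155 in activated B cells, T cells and macrophages. miR-223 is the best known miRNA of neutrophils and other myeloid cells, and miR-342 is found in lymphoid and myeloid cells. miR-146a and miR-146b dampen signalling downstream of Toll-like receptors.

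Mature sequences are shown to tell the products of these genes apart, since a read is assigned by its bases. They are from RefSeq, build GRCm38.p6, written 5′ to 3′ with the seed in capitals. At least 1 mature entry was found for each of the 6 genes, and those of the 6 genes were 21 to 23 bases long. Mir146 (miR-146a) and Mir142b are shown because they share a seed or a locus with a member.
miR-142a-5p: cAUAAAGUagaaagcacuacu
miR-142a-3p: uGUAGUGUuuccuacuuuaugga
miR-142b: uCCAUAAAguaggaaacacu
miR-150-3p: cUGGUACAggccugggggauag
miR-155-5p: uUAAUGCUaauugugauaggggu
miR-223-3p: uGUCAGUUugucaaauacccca
miR-342-3p: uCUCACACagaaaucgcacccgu
miR-146b-5p: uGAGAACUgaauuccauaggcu
miR-146a-5p: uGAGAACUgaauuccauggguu
In the mature entries of the table, which for Mir150 were of the 3p arm only, no seed was found in more than 1 member. Among the other entries, 1 gene shared a seed with a member, and that was Mir146 with Mir146b. Entries on 1 chromosome, where no member lies, were left out of this search. The tables count reads per gene, so the 5p and 3p products of a gene could not be measured apart.

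The genes lie at separate loci, given here in mm10 with GENCODE M21 annotation. Mir142 (chromosome 11, 87756864 to 87756927, plus strand) lies in an intron of the noncoding gene Mir142hg. Mir155 (chromosome 16, 84714140 to 84714204, plus strand) lies in an exon of the noncoding gene Mir155hg. Mir342 (chromosome 12, 108658620 to 108658718, plus strand) lies in an intron of Evl, which encodes a regulator of actin filaments. Mir223 (chromosome X, 96242817 to 96242926, plus strand) lies in an exon of the noncoding gene F630028O10Rik. Mir146b (chromosome 19, 46342762 to 46342870, plus strand) lies in an intron of Mfsd13a. Mir150 (chromosome 7, 45121757 to 45121821, plus strand) lies in none of the longer genes considered on its strand, and the nearest such gene, Gm45552, is 96 bases away.

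White-cell miRNAs formed a small part of the adrenal profile, and 5 of the 6 genes were detected, meaning at least 10 sense counts in both libraries. Over all annotated miRNA genes, 339 of 2202 were detected (15.4%). Together the 6 genes took 0.193% of the sense miRNA counts in replicate 1 (95% Wilson interval 0.189 to 0.197%) and 0.262% in replicate 2 (0.256 to 0.268%). The mean was 0.227% ± 0.0488 (SD, n = 2), and the intervals of the libraries did not overlap. Intervals cover counting error only. They treat reads as independent, which reads from PCR are not, so they may be too narrow even for that error. In whole glands, fewer white cells, less miRNA per cell and counts from other cell types cannot be told apart.

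Levels of single genes are given as CPM (counts per 1000000), the share of the library's sense miRNA counts that fell on the gene. A read covers 1 mature product of nearly the same length in each gene, so no length scaling was applied. Mir150, the lymphocyte gene, had 2951 counts in replicate 1 and 2193 in replicate 2. These counts gave 547 CPM in replicate 1 and 724 CPM in replicate 2, a mean of 635 ± 125 CPM (SD, n = 2), which was the highest of the 6. Mir342 had 3147 and 1722 counts, or 583 CPM in replicate 1 and 568 CPM in replicate 2, with a mean of 576 ± 10.4 CPM. The libraries were close together for Mir342, and their Wilson intervals overlapped, at 563 to 604 CPM in replicate 1 and 542 to 596 CPM in replicate 2.

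Mir142, the gene shared by blood lineages, had 1919 counts in replicate 1 and 2338 in replicate 2, although replicate 2 was the shallower library. Its level was 356 CPM in replicate 1 and 772 CPM in replicate 2, with a mean of 564 ± 294 CPM. Its Wilson intervals lay far apart, at 340 to 372 CPM in replicate 1 and 741 to 804 CPM in replicate 2. Mir155, the gene of activated lymphocytes and macrophages, had 1912 and 1102 counts, or 354 CPM in replicate 1 and 364 CPM in replicate 2, with a mean of 359 ± 6.69 CPM. As with Mir342, the intervals of its libraries overlapped. Mir223, the myeloid gene, had 477 and 574 counts, or 88.4 CPM in replicate 1 and 189 CPM in replicate 2, with a mean of 139 ± 71.5 CPM. Mir146b was barely counted, with 3 counts in replicate 1 and 4 counts in replicate 2. Its level was 0.556 CPM (0.189 to 1.63) and 1.32 CPM (0.513 to 3.39), and it was the 1 member below the detection minimum.

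**Figure D1:**
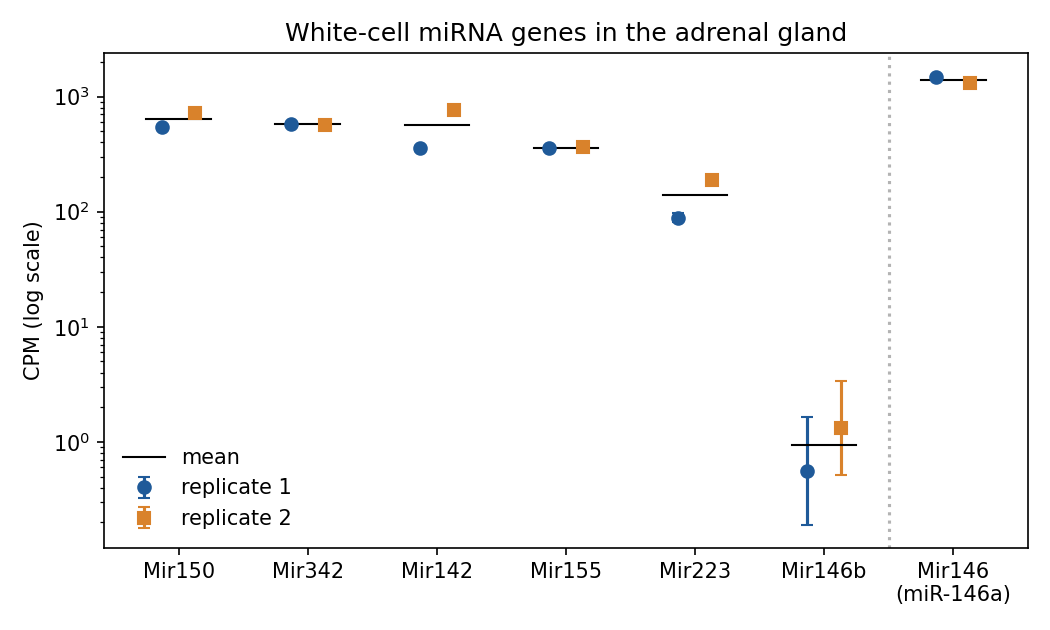
Levels of the 6 white-cell genes and of Mir146 in each adrenal library, as CPM on a log axis. Circles are replicate 1, squares replicate 2, bars 95% Wilson intervals (smaller than the symbol for most genes) and black lines the mean. Mir142 and Mir223 show the widest gaps between libraries among the 5 detected white-cell genes, and Mir146b lies near 1 CPM in both.

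In rank, Mir150 stood 94th, Mir342 97th and Mir142 99th of the 2202 genes by mean CPM, followed by Mir155 at 118th and Mir223 at 166th. Mir146b stood 451st. Among the 5 detected genes, ranks moved most for Mir223, which was 187th in replicate 1 and 139th in replicate 2, and for Mir142, which was 122nd and 77th. The order Mir150, Mir342, Mir142, Mir155 was not separated by the spread between the libraries. That spread, pooled over all genes tested, was a coefficient of variation of 41.6%, which together with counting error sets a limit for the ratio of 2 genes' geometric means, 2.26-fold for well counted genes. Of the 15 pairs of members, 12 kept the same order in both libraries and 9 of these were also farther apart than the limit. The 9 pairs were Mir223 below Mir150, Mir342, Mir142 and Mir155, and Mir146b below each of the other 5 genes. Among Mir150, Mir342 and Mir142 the order changed between the libraries: Mir342 led in replicate 1 and Mir142 led in replicate 2. Yields of library preparation that depend on sequence, where shared by both libraries, are in none of these limits, so the orders are of read counts.

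Mir146b stood far below its seed relative Mir146, the gene of miR-146a. Mir146 had 8055 counts in replicate 1 and 3964 counts in replicate 2, at 1492 CPM and 1308 CPM, and a mean of 1400 ± 130 CPM. It was thus above each of the 6 white-cell genes in both libraries. Mir146 counts exceeded Mir146b counts by 2685 to 1 in replicate 1 (exact 95% interval 918 to 13023) and by 991 to 1 in replicate 2 (387 to 3639). With 3 and 4 counts of Mir146b, these intervals are wide and overlap. The mature miR-146b-5p and miR-146a-5p printed above are both 22 bases long and are the same at 20 positions. They differ by A18G and C21U, counted from 1 at the 5′ end, with the base of miR-146b-5p first and that of miR-146a-5p last. The first 17 bases are the same, so a read that ended there would not tell them apart, and the hairpins share a stretch of 21 bases. How reads that fitted both loci were treated cannot be seen per gene, and reads mapped to several places (28.5% of the reads in replicate 1 and 30.6% in replicate 2) are in no gene's count. The level of Mir146b is therefore uncertain. In the other 4 members with a hairpin in the RefSeq table, the longest stretch shared with a hairpin at another locus was 10 to 13 bases, among 1004 hairpins compared.

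Mir142 could be measured on the sense strand alone. Mir142b is annotated on the minus strand of the same place (chromosome 11, 87756841 to 87756955), and its mature product miR-142b, of 20 bases, is the reverse complement of bases 4 to 23 of miR-142a-3p. All 1919 counts of replicate 1 and 2338 counts of replicate 2 were on the strand of Mir142, and Mir142b had 0 sense counts in each library. At this depth a level below 0.556 CPM in replicate 1 or 0.990 CPM in replicate 2, the worth of 3 counts, could not be told from 0. When strand was ignored, Mir142 and Mir142b had 0 counts in both libraries, because reads that overlap 2 genes were set aside as ambiguous. The other 5 members had the same counts with and without strand, and all 6 members had 0 antisense counts.

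The libraries were then compared gene by gene, with sizes scaled by TMM. With TMM, 5 of 5 white-cell genes tested were higher in replicate 2, while with total counts Mir342 lay towards replicate 1, and Mir155 did so too once Mir126a, the most abundant gene, was left out of the totals. All 5 were called against counting error by a two-sided exact binomial test, adjusted after Benjamini and Hochberg over all genes tested. Of all 434 genes tested, 254 (58.5%) were called in either direction and 123 (28.3%) as higher in replicate 2. Such a test sets 1 library against the other and says nothing of conditions. As log2 of replicate 1 over replicate 2, the median ratio was -0.71 over the 5 white-cell genes tested and 0.06 over all genes tested. Mir146b had too few counts to be tested, so these values are of the genes that passed the count minimum.

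Among the 5, Mir142 differed most, by a log2 ratio of -1.42, or 2.68-fold higher in replicate 2 (exact binomial test, adjusted p = 2.58e-221). It had the 22nd lowest ratio of the 434 genes. Mir223 was next at -1.40, or 2.64-fold higher in replicate 2 (exact binomial test, adjusted p = 3.35e-54), and had the 24th lowest ratio. Mir150 was 1.63-fold higher in replicate 2 (log2 ratio -0.71). Mir155 was 1.27-fold higher in replicate 2 (-0.34) and Mir342 was 1.20-fold higher (-0.27), and scaling to total counts ended both calls, at adjusted p = 0.565 and 0.469 in the exact binomial test. Without Mir126a in the totals, Mir342 was called the other way, higher in replicate 1, at a log2 ratio of 0.14 (exact binomial test, adjusted p = 0.00243). None of the 5 ratios reached 3.16-fold, the limit that the pooled spread sets for 1 gene in 2 libraries. With that spread as the error in edgeR's exact test, 0 of the 5 genes and 0 of the 434 (0%) were called, while 0 of the 5 and 24 of the 434 had an unadjusted p under 0.05. The adjusted p was then 0.961 for Mir142 and 0.971 for Mir223. The pooled spread was estimated from these same 2 libraries, so it already holds their differences. This test therefore cannot show whether a gene differs between them.

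**Figure D2:**
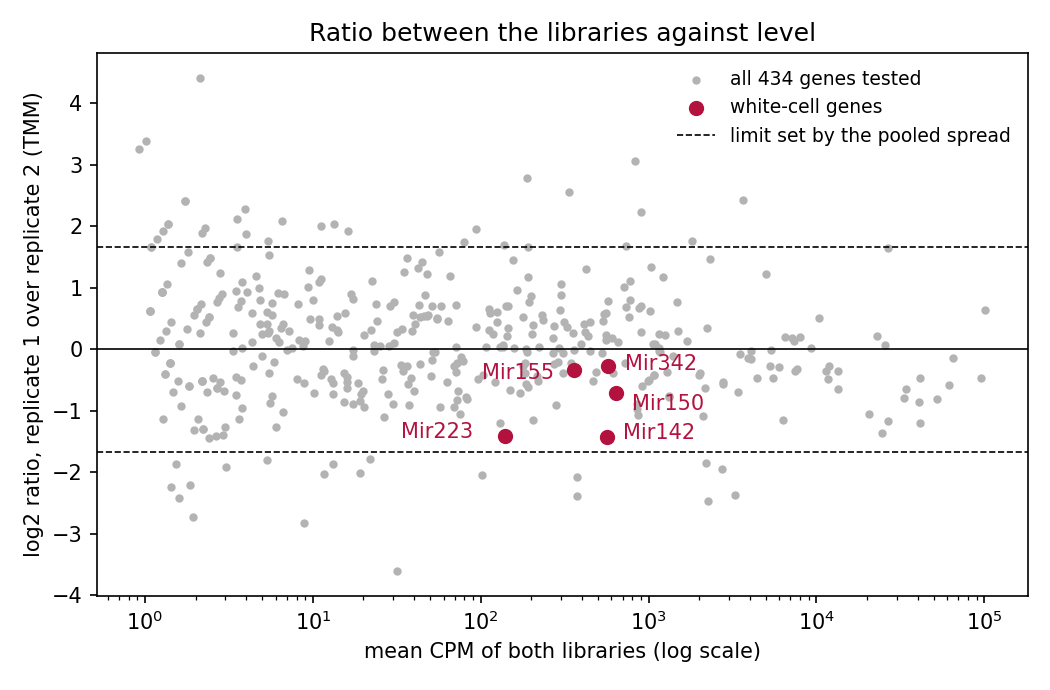
Log2 ratio of replicate 1 over replicate 2, scaled by TMM, against mean CPM on a log axis. Grey points are the 434 genes tested, red points the 5 white-cell genes tested, and dashed lines the 3.16-fold limit set by the pooled spread. The red points lie between -0.27 and -1.42, inside the dashed lines, and with total counts Mir342 would lie above 0.

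Ratios between white-cell genes of the same library do not depend on the scaling, and they fell into 2 kinds. Mir142 counts were 4.02 times those of Mir223 in replicate 1 (exact 95% interval 3.64 to 4.46) and 4.07 times in replicate 2 (3.72 to 4.47). Mir155 counts were 0.608 times those of Mir342 in replicate 1 (0.574 to 0.643) and 0.640 times in replicate 2 (0.593 to 0.691). In these 2 pairs the ratios of the libraries were alike within counting error. Across them they were not: Mir142 counts were 0.610 times those of Mir342 in replicate 1 (0.576 to 0.646) and 1.36 times in replicate 2 (1.28 to 1.45). Likewise, Mir155 counts were 4.01 times those of Mir223 in replicate 1 (3.62 to 4.44) and 1.92 times in replicate 2 (1.73 to 2.13). Mir150 lay between the kinds, with counts 1.54 times those of Mir155 in replicate 1 (1.46 to 1.64) and 1.99 times in replicate 2 (1.85 to 2.14). These pairs were picked after their values were seen, from the 10 pairs of detected genes, and 2 libraries give no test of the grouping.

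As shares of the counts of the 6 genes, Mir342 held 30.2% in replicate 1 and 21.7% in replicate 2, and Mir155 held 18.4% and 13.9%. Mir142 held 18.4% in replicate 1 (95% Wilson interval 17.7 to 19.2%) and 29.5% in replicate 2 (28.5 to 30.5%). Mir223 held 4.58% in replicate 1 and 7.24% in replicate 2. Mir150 held nearly the same share in both, 28.4% (27.5 to 29.2%) and 27.6% (26.7 to 28.6%). A rise in 1 share lowers the others, so the shares are not independent of each other.

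**Figure D3:**
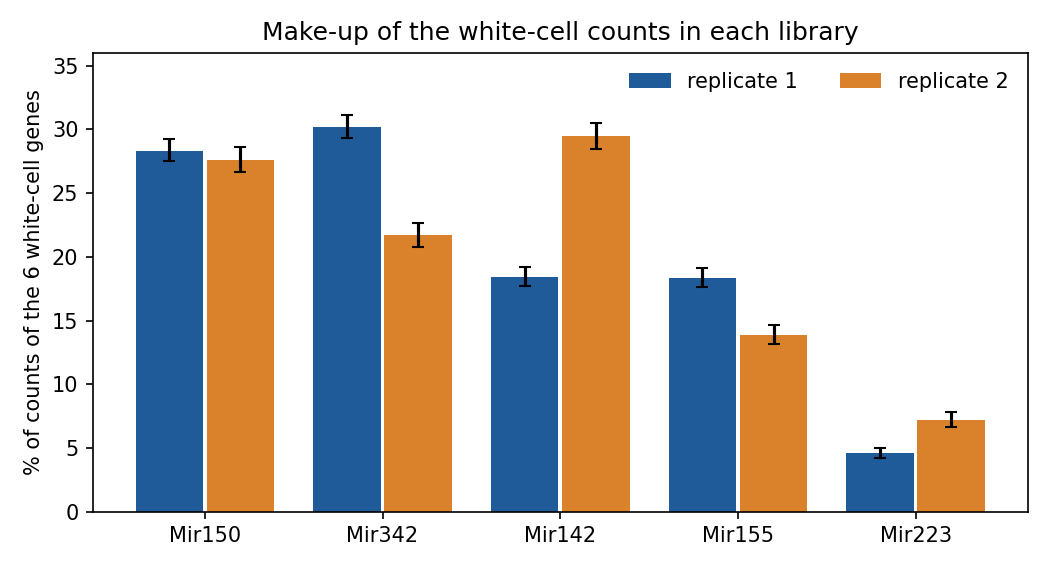
Share of the counts of the 6 white-cell genes held by each of the 5 detected genes, in percent, with 95% Wilson intervals as bars. Mir342 has the largest share in replicate 1 (30.2%) and Mir142 in replicate 2 (29.5%), while Mir150 holds 28.4% and 27.6%.

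Other lists of marker miRNAs moved between the same libraries, in both directions. The 3 red-cell genes Mir144, Mir451a and Mir486 summed to 1210 CPM in replicate 1, against 576 CPM in replicate 2. All 3 were called higher in replicate 1 by the exact binomial test, as were 131 of the 434 genes tested. The red-cell median log2 ratio was 1.06, while the median of the white-cell genes tested had the opposite sign. No gene of any list was called against the pooled spread, which was estimated from these same libraries and cannot show whether a gene differs. The list for smooth muscle and fibroblasts summed to 31789 CPM in replicate 1, against 59526 CPM in replicate 2. Most of this was Mir143, with 28989 CPM in replicate 1 and 53980 CPM in replicate 2. Mir214 was called the other way, at 1528 CPM in replicate 1 and 264 CPM in replicate 2. With TMM, 3 of the 5 genes tested of this list were called higher in replicate 2, against 1 higher in replicate 1. Without Mir126a in the totals these counts were 2 and 2, beside 280 of the 434 genes tested in either direction. Mir199a-1 of that list had 0 counts in both libraries, which does not show absence, because reads with more than 1 matching place went uncounted. Genes with numbered copies in any list, such as Mir181a-1 and Mir181a-2, may be undercounted for the same reason. The 2 endothelial genes summed to 133214 CPM in replicate 1, against 69289 CPM in replicate 2, nearly all of it Mir126a. Mir122, the hepatocyte gene, was 8.33-fold higher in replicate 1, and it is the 1 gene of its list. The 7 epithelial genes summed to 873 CPM in replicate 1, against 3729 CPM in replicate 2, and most of this was Mir203, with 822 CPM in replicate 1 and 3691 CPM in replicate 2. Within that list Mir200b was called the other way, higher in replicate 1, at 14.3 CPM in replicate 1 and 4.62 CPM in replicate 2. The 4 endocrine genes together had 31668 CPM in replicate 1 against 25395 CPM in replicate 2, and most of this was Mir375. With TMM, Mir375 was called 1.05-fold higher in replicate 1. Mir7b was called the other way, at 2569 CPM in replicate 1 and 3010 CPM in replicate 2. The part of tissue make-up in the white-cell ratios was not tested.

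Further miRNAs with known roles in immune and blood-forming cells did not move 1 way. Of the 14 genes in this list, 11 were detected. All 14 reached the count minimum for testing, with 6 called towards replicate 1 and 6 towards replicate 2 under TMM, or 8 and 3 with total counts. Over all 434 genes tested, 131 and 123 were called in these directions under TMM, and 272 in either direction with total counts. The median log2 ratio of the 14 genes was 0.13 under TMM and 0.44 with total counts. Mir15a, which lies with Mir16-1 in a pair known for its loss in B cell leukaemia, was 2.77-fold higher in replicate 1, at 3613 CPM in replicate 1 and 1058 CPM in replicate 2. Mir21a, found in many cell types and raised in inflammation, was 2.25-fold higher in replicate 2, at 18943 CPM in replicate 1 and 34600 CPM in replicate 2. Mir181a-1, known from developing T cells, had 90.2 CPM in replicate 1 and 102 CPM in replicate 2, while Mir181b-2 had 426 CPM and 288 CPM. Mir146 was 1.08-fold higher in replicate 2 with TMM (exact binomial test, adjusted p = 0.000162), and its CPM was higher in replicate 1. Many of these genes are also expressed outside blood cells, so their sums do not track white cells.

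**Figure D4:**
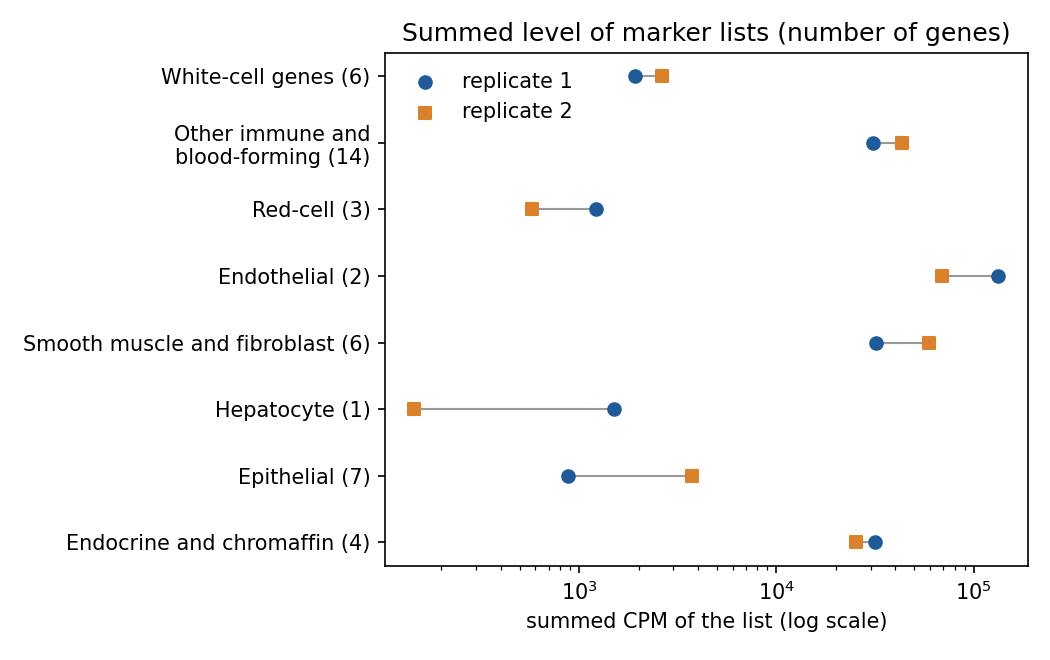
Summed CPM of each list of marker miRNAs in replicate 1 (circles) and replicate 2 (squares) on a log axis, with the number of genes in parentheses. The white-cell genes sum to 1928 CPM in replicate 1, against 2618 CPM in replicate 2, and the red-cell genes to 1210 CPM and 576 CPM.

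Base composition was set beside the ratios. Hairpin GC content was 42.2% for Mir142, 43.1% for Mir155, 50.0% for Mir223 and 51.5% for Mir342. Mir150, also tested, had no hairpin entry and is not in this comparison. For the other genes tested with a hairpin GC content within 5 percentage points, the median log2 ratio was -0.20 at Mir142 and -0.11 at Mir155. It was 0.04 at Mir223 and 0.08 at Mir342. Hairpins were found for 363 of the 434 genes tested (83.6%). The part of base composition in the ratios was not tested.

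The genes nearest to each member in level over the 2 libraries were found by the Euclidean distance of log2(CPM + 1) among detected genes. Mir148a and Mir134 lay nearest to Mir150, and Mir148a and Mir341 nearest to Mir342. For Mir155 they were Mir501, with 353 CPM in replicate 1 and 333 CPM in replicate 2, and Mir598. For Mir223 they were Mir494, with 91.0 CPM in replicate 1 and 169 CPM in replicate 2, and Mir222. The nearest to Mir142 were Mir137 and Mir206 at distances of 0.68 and 0.76, farther than the 0.13 between Mir155 and Mir501. With 2 libraries this is a likeness in 2 values per gene.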

How the data were processed

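Raw read counts per miRNA gene were deposited for each library in 3 columns with no header, taken as unstranded, sense and antisense counts, since all columns add up to 1 total. The deposited notes give mm10 and GENCODE M21, while aligner, counter and trimming are named in none of the labels or notes used. The 4 summary entries (unmapped, several places, no miRNA gene, ambiguous) stayed out of library sizes. The sense counts were divided by their library total to give CPM, so a single count equalled 0.185 CPM in replicate 1 and, in the shallower replicate 2, 0.330 CPM. A count of 0 was read as under 3 counts.

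Genes reaching 10 counts in the sum of both libraries were scaled by TMM (edgeR 4.0.16, R 4.3.3), with a prior of 0.5 counts for ratios. Each was tested by an exact two-sided binomial test, adjusted by Benjamini-Hochberg over all genes tested, threshold 0.05. For the pooled spread, edgeR's common dispersion (intercept only) was used. Intervals and tables used scipy 1.17.1 and pandas 2.3.3. The steps were tested on simulated data. The named genes were the members, their opposite-strand and seed relatives, the 2 nearest genes in level and the marker lists. Members and lists were chosen with earlier results of these data known. Other scalings, count minimums, priors, strand handling and DESeq2 1.42.0 size factors and dispersions were tried.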

Additional observations from a re-analysis of the deposited data

How the results depend on the processing

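No paired analysis was possible because there was 1 group. With all reads in the tables as the total, the members' share was 0.0899%, and the levels were 251 CPM for Mir150, 227 for Mir342, 224 for Mir142, 142 for Mir155, 55.2 for Mir223 and 0.373 for Mir146b. Without Mir126a in the total, Mir155 had 399.7 CPM and Mir342 had 642 CPM. Without strand, Mir142 had 0 CPM, Mir150 788, Mir155 447 and Mir342 718. Leaving out each library gave shares of 0.193 and 0.262%. Total counts moved all log2 ratios by 0.30, and totals without Mir126a by 0.40, towards replicate 1. With total counts, 3 members were called, all 3 higher in replicate 2, beside 272 of the 434 genes tested in either direction. The members' median log2 ratio was then -0.40, and Mir342 reversed to 0.037. Without Mir126a in the totals, 4 members and 280 of the 434 genes tested were called. Of the members, 3 were higher in replicate 2 and Mir342 was higher in replicate 1 (exact binomial test, adjusted p = 0.00243). The members' median was then -0.30, and Mir342 (0.14) and Mir155 (0.064) reversed. The median was -0.92 over 6 genes with no count minimum above 0, where Mir146b entered with 3 and 4 counts. It was -0.59 over 5 genes with a minimum of 100 counts, and -0.48 over 4 genes without strand, where Mir142 dropped out. In a choice made after seeing the data, it was -0.52 without Mir142. These medians are thus not all of the same genes. With the pooled spread as the error, 0 members and 0 of all genes were called, but that spread already holds the differences between the libraries. Mir142, Mir150 and Mir223 stayed higher in replicate 2 under every scaling, count minimum and prior tried, with log2 ratios of -1.42 to -1.02, -0.71 to -0.30 and -1.40 to -0.997, except that Mir142 has no counts without strand. Member pairs apart in level numbered 9 to 11. The pooled spread was 41.4 to 46.5% with other scalings, count minimums and strand handling, and 22.9% with DESeq2's median dispersion, which gave the 11 pairs. Leaving out a library leaves no ratio to test. Depth limits Mir146b, where 1 count moves the level by 0.185 or 0.330 CPM.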

Other observations

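The loss of Mir142 without strand was shared by other genes of its kind. In the annotation, 64 miRNA genes overlap a miRNA gene on the opposite strand, and 28 of them were detected on the sense strand. Of these 28, all 28 fell below 10 counts in at least 1 library when strand was ignored. Over all genes, 339 were detected on the sense strand and 311 without strand.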
